A study of Mus musculus with 6 samples.

Results

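LIN28A and LIN28B are RNA binding proteins that block the maturation of the let-7 family of microRNAs in the early embryo. Mature let-7 in turn represses mRNAs that carry a match to its seed, among them the mRNAs of LIN28A, LIN28B and the RNA binding ubiquitin ligase TRIM71, and this mutual repression is a known switch between embryonic and later cell states. 10 genes of this axis were described here, which were given by name as a set and not by their values: the regulators *Lin28a*, *Lin28b* and *Trim71*, the chromatin protein genes *Hmga1* and *Hmga2*, the mRNA binding protein genes *Igf2bp1*, *Igf2bp2* and *Igf2bp3*, and the transcription factor genes *Mycn* and *Sall4*. All 10 were among the 15266 genes listed, and all 10 were among the 12891 genes with enough reads to be tested.

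The libraries were mRNA-seq of mouse embryoid bodies after 4 days in serum without LIF (D4 EBs), a culture model of gastrulation. Both lines were made from W9.5 mouse embryonic stem cells. In the EVX1-Δfs line (clone 14), frameshifts on both alleles in exon 2 disrupt the homeodomain of EVX1, a homeobox transcription factor of the primitive streak, and the antisense lncRNA gene *Evx1as* is left in place. In the Del#3 line, 2.6 kb of the shared *Evx1* and *Evx1as* start region is deleted. The EVX1-Δfs line is a single clone, the labels give no clone for Del#3, and each line has 3 libraries, so effects of the edit and of the clone cannot be told apart, and libraries of unedited cells are not in this comparison. The lines being compared were differentiated side by side, and each side by side set was started on a different day. The replicate number in the sample names was taken to mark that day in both lines.

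Each EVX1-Δfs library held between 9024579 and 15699124 reads on the listed genes, and each Del#3 library between 9729013 and 12231851. In both lines the library of replicate 1 was the deepest. The targeted gene *Evx1* was at 2655, 3671 and 3051 normalized counts in the EVX1-Δfs libraries and at 38.3, 32.5 and 33.1 in the Del#3 libraries, so the labels fit the targeted gene. Markers of the epiblast, primitive streak, definitive endoderm and blood were all present in both lines. The summed pluripotent and epiblast markers ranged from 23990 to 32873 normalized counts in EVX1-Δfs and from 21096 to 33170 in Del#3, and 4 of 5 neurectoderm markers averaged under 10. An embryoid body is a mixture of cells, so fewer cells of a type and less RNA per cell cannot be told apart for any value below.

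The seed of let-7, bases 2 to 8, is what links most of these genes. In RefSeq (build GRCm38.p6), 12 mature entries of the family shared the seed GAGGUAG, and let-7j alone had GAGGUAU. A few of them are shown with the seed in capitals, to show how much of the rest of the sequence varies:
let-7a-5p: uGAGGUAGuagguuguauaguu
let-7d-5p: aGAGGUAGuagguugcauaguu
let-7g-5p: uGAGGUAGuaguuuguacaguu
miR-98-5p: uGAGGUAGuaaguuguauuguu
let-7j: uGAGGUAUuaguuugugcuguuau

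A match to this seed followed by an A reads CTACCTCA on the mRNA (the 8mer), and without that A it reads CTACCTC (the 7mer, counted here also within the 8mer). The longest 3′ UTR annotated for each gene in NCBIM37, the assembly known as mm9, was searched on the strand of the transcript only. The 8mer was found in 8 of the 10 genes and the 7mer in 9 of the 10. Among the 11863 tested genes with an annotated 3′ UTR of any length, 3.52% held the 8mer and 10.2% held the 7mer. The 10 genes were named as let-7 regulators and targets, so a higher share among them was built into the choice. The 3′ UTRs of the 10 genes were between 910 and 6337 bases long. Among tested genes with a 3′ UTR of 0.8 to 1.25 times the same length, the share with the 8mer was highest for the length of *Igf2bp1*, at 14.4%, and 8.62% for that of *Lin28b*, 6.55% for that of *Hmga2* and 3.77% for that of *Trim71*. *Igf2bp1* held 3 of the 8mers, *Lin28a* and *Trim71* held 2 each, and *Lin28b*, *Hmga2*, *Igf2bp2*, *Igf2bp3* and *Sall4* held 1 each. *Lin28b* and *Hmga2* held 3 further 7mers each, *Hmga1* held only a 7mer, and *Mycn* held neither word in its annotated 3′ UTR. The 8mer sites of the 5 genes whose replicate 1 libraries lay apart from the others, as described below, are shown 5′ to 3′ with the 8mer in capitals:
*Lin28a* at chr4:133561096-133561122, minus strand: agcctgttgaaCTACCTCAtttttgcc
*Lin28a* at chr4:133560458-133560484, minus strand: tcgccacaaacCTACCTCActgtgttg
*Lin28b* at chr10:45100820-45100846, minus strand: gggcgggaagtCTACCTCAtgcaagca
*Trim71* at chr9:114421582-114421608, minus strand: ttgcctaagtcCTACCTCAgcttaaat
*Trim71* at chr9:114421486-114421512, minus strand: ataatttctatCTACCTCAactctttg
*Hmga2* at chr10:119801272-119801298, minus strand: acattcaatttCTACCTCAgcatcagt
*Igf2bp2* at chr16:22059538-22059564, minus strand: acaaataaaagCTACCTCAggtgtttt

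A matching word is a description of the sequence and does not show that let-7 binds there. The *Lin28b* and *Hmga2* 8mers lay close to the stop codon, 36 and 58 bases after it. Those of *Trim71* lay 166 and 262 bases after it, and those of *Lin28a* 909 and 1547 bases after it.

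**Figure D1:**
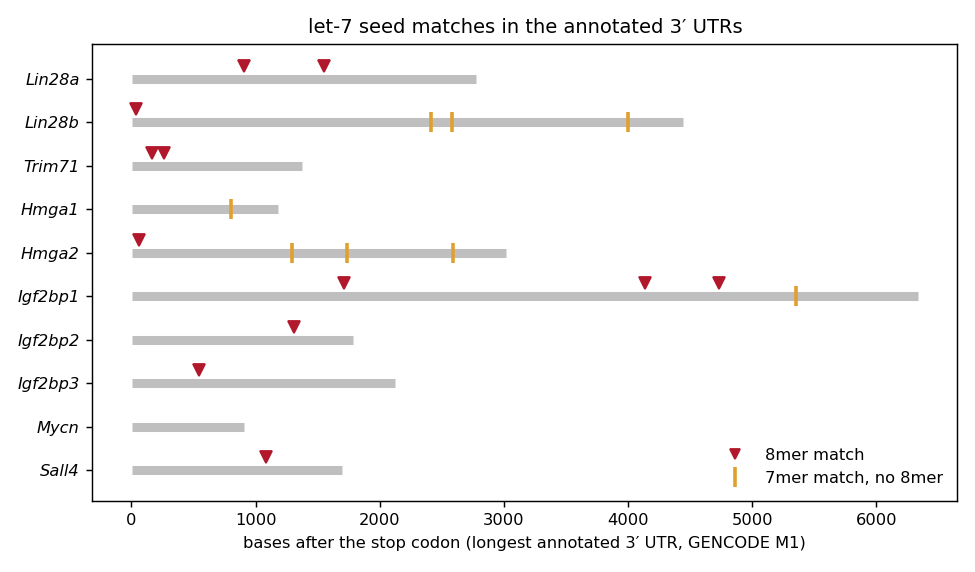
Position of let-7 seed matches in the longest annotated 3′ UTR of each gene, in bases after the stop codon; grey bars are the 3′ UTRs, red triangles 8mers and yellow ticks 7mers without the final A. 8 genes carry an 8mer, *Hmga1* carries only a 7mer and *Mycn* carries neither.

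*Lin28a* (chr4:133559245-133574756, minus strand) encodes the LIN28 protein typical of pluripotent cells. Its level in the EVX1-Δfs libraries of replicates 1, 2 and 3 was 5024, 7195 and 7439 normalized counts, and in the Del#3 libraries it was 4880, 7709 and 6834. The lines overlapped, and in each line replicate 1 was the lowest library. The log2 difference, Del#3 minus EVX1-Δfs, was -0.02 (SE 0.26, 95% interval -0.61 to 0.56).

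*Lin28b* (chr10:45096426-45206201, minus strand) encodes the second LIN28 protein, which also blocks the maturation of let-7. It had 203, 53.9 and 82.7 normalized counts in EVX1-Δfs and 320, 128 and 160 in Del#3. In each of the 3 pairs with the same replicate number the Del#3 library was the higher. The lines still overlapped, because the EVX1-Δfs library of replicate 1 lay above 2 of the Del#3 libraries. The values rested on 46 to 402 reads per library. The log2 difference was 0.94 (SE 0.50, 95% interval -0.16 to 2.05), which is larger than that of any of the other 9 genes and did not pass the test (limma, unadjusted p = 0.0867, adjusted p = 1.00). The paired differences were 0.66, 1.23 and 0.95 for replicates 1, 2 and 3. With the replicate day as a block, the SE fell to 0.22 and the unadjusted p to 0.0026, with an adjusted p of 0.693 in limma. The exact permutation test without the pairing gave a two-sided p of 0.3, and the smallest p that 3 against 3 allows is 0.1. The size of the difference depended on single libraries: it was 1.47 without EVX1-Δfs replicate 1 and 0.53 without EVX1-Δfs replicate 2.

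*Trim71* (chr9:114420393-114473487, minus strand), also known as *Lin41*, encodes a ubiquitin ligase that represses mRNAs in embryonic stem cells and is itself a classical let-7 target. Its values were 433, 1004 and 883 normalized counts in EVX1-Δfs and 599, 802 and 1017 in Del#3. As for *Lin28a*, replicate 1 was the lowest library of each line. The lines overlapped, and the log2 difference was 0.12 (SE 0.34, 95% interval -0.64 to 0.88).

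*Hmga2* (chr10:119798331-119913525, minus strand) encodes a chromatin protein with AT-hooks and is a well studied let-7 target. It had 1802, 887 and 933 normalized counts in EVX1-Δfs and 1371, 643 and 1320 in Del#3. Replicate 1 was the highest library in both lines. The log2 difference between the lines was -0.12 (SE 0.36), within the spread of the replicates. By sequence, 44.6% of the exonic bases of *Hmga2* had a copy of at least 95% identity on chromosome 1, so a part of its reads may be shared with that copy.

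*Hmga1* (chr17:27693565-27700619, plus strand) encodes the related protein HMGA1. It was listed at 21.1, 42.2 and 15.4 normalized counts in EVX1-Δfs and at 19.1, 20.9 and 26.7 in Del#3, from 13 to 36 reads per library. The lines overlapped (log2 difference -0.12, SE 0.47). Of its exonic bases, 77.5% had a copy elsewhere, which aligned over 1543 bases at 99.8% identity to chr11:120624167-120625709. Its level is therefore uncertain.

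The 3 IGF2BP proteins bind mRNAs, including that of IGF2, and are known as products of embryonic tissues. *Igf2bp1* (chr11:95818477-95867254, minus strand) had 3299, 2618 and 1783 normalized counts in EVX1-Δfs and 2927, 2252 and 2975 in Del#3. *Igf2bp2* (chr16:22059082-22163372, minus strand) had 1448, 878 and 852 in EVX1-Δfs and 1449, 750 and 1044 in Del#3. *Igf2bp3* (chr6:49035220-49164953, minus strand) had 1696, 1906 and 1339 in EVX1-Δfs and 1714, 1090 and 2232 in Del#3. For all 3 genes the lines overlapped, and only for *Igf2bp2* was replicate 1 the highest library of both lines without overlap with the other days. The log2 differences were 0.12 (SE 0.27) for *Igf2bp1*, 0.02 (SE 0.31) for *Igf2bp2* and -0.02 (SE 0.29) for *Igf2bp3*.

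*Mycn* (chr12:12942902-12948720, minus strand) encodes N-MYC, a growth-promoting transcription factor of embryonic cells. It was the steadiest of the 10 genes, with 739, 772 and 770 normalized counts in EVX1-Δfs and 679, 795 and 677 in Del#3. The log2 difference was -0.09 (SE 0.22, 95% interval -0.57 to 0.39). *Sall4* (chr2:168573832-168593443, minus strand) encodes a zinc finger factor of the pluripotency network. Its values were 2687, 4275 and 2377 normalized counts in EVX1-Δfs and 3101, 3225 and 4333 in Del#3. The lines overlapped (log2 difference 0.22, SE 0.27).

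**Figure D2:**
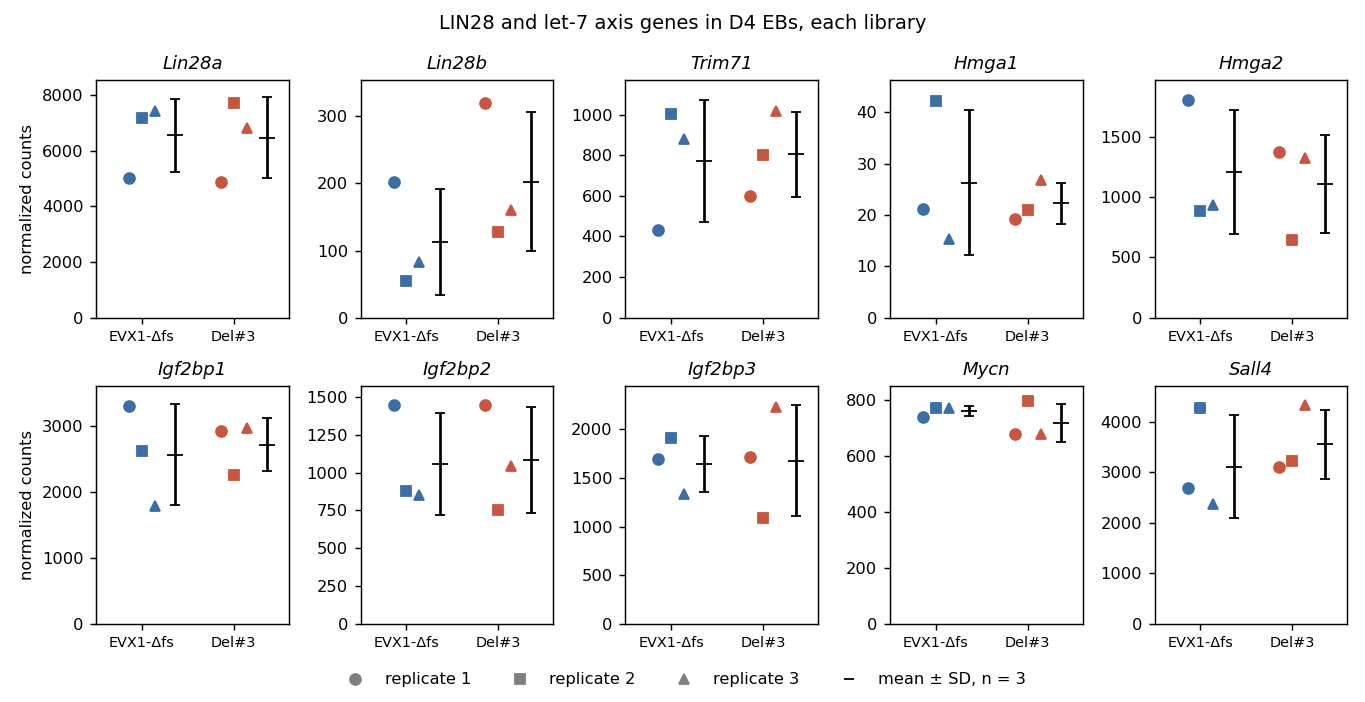
Normalized counts of each gene in every library; circles, squares and triangles are replicates 1, 2 and 3, and the bar is the mean ± SD of 3 libraries. The lines overlap for every gene, and *Lin28b* reaches from 53.9 in EVX1-Δfs to 320 in Del#3.

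The comparison of Del#3 with EVX1-Δfs asks what the loss of the locus changes beyond the loss of EVX1 protein. None of the 10 genes passed the limma test (0 of 10, against 2 of the 12891 genes tested, 0.0155%, which were *Evx1* and *Evx1as*). The count was also 0 of 10 with edgeR's quasi-likelihood test and with DESeq2. At an unadjusted p under 0.05 in limma it was again 0 of 10, against 1.03% of all genes, but it was 1 of 10 (*Lin28b*, unadjusted p = 0.00504) without EVX1-Δfs replicate 1, against 3.41%, and 1 of 10 (*Lin28b*, 0.0138) with both libraries of replicate 1 left out, against 1.82%. With the replicate block in limma, 0 of 10 passed the adjusted test, against 0.0233% of all genes, and 1 of 10 (*Lin28b*) had an unadjusted p under 0.05, against 4.62%. No gene of the 10 had lines that did not overlap. Over all genes the lines did not overlap for 3.51%, with Del#3 higher for 1.71% and lower for 1.80%. The median log2 difference of the 10 genes was 0.0025, beside 0.0022 over all genes tested, and 5 of the 10 were positive. With single libraries left out, the median of the 10 ranged from -0.096, without EVX1-Δfs replicate 3, to 0.24, without Del#3 replicate 2, and 4 to 7 of the 10 were positive. The intervals still allowed sizeable changes: the widest, that of *Lin28b*, ran up to 2.05 and that of *Hmga1* from -1.15 to 0.91, and a missed threshold does not show that the lines were alike.

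The pairs of libraries differed from each other in a way that the mean hides. In the pair of replicate 3, 8 of the 10 genes were higher in Del#3, with a median log2 difference of 0.62 beside 0.00090 over all genes tested. In the pair of replicate 2, 3 of the 10 were higher in Del#3 and the median was -0.28, beside 0.024 over all genes. In the pair of replicate 1, 5 of the 10 were higher and the median was -0.021. *Lin28b* was the only gene of the 10 that was higher in Del#3 in all 3 pairs, which held for 12.1% of all genes tested. These are descriptions of single pairs of libraries and carry no test.

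**Figure D3:**
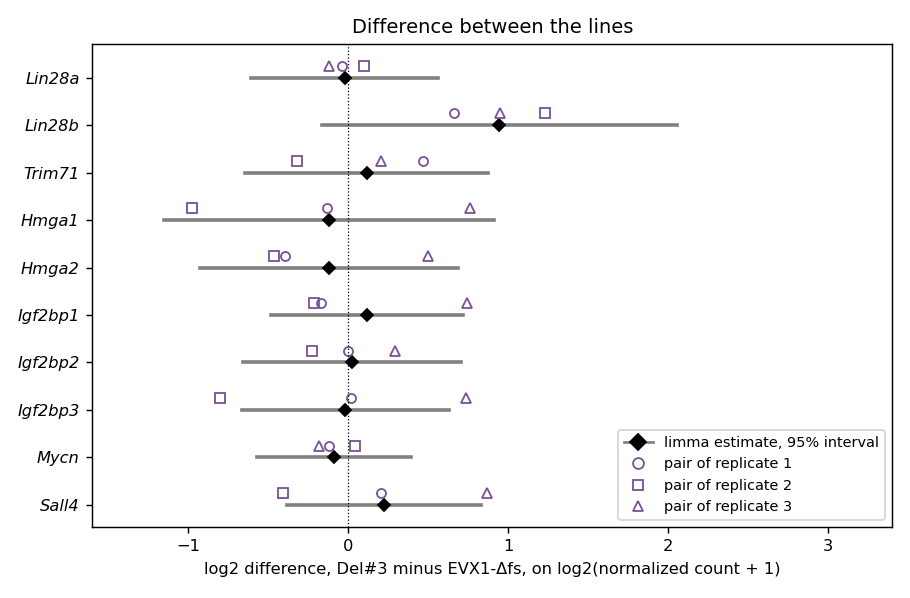
Log2 difference between the lines for each gene, Del#3 minus EVX1-Δfs. Diamonds and grey bars are the limma estimates with 95% intervals, and open symbols the 3 pairs with the same replicate number. All intervals include 0, and the pairs of *Lin28b* all lie above 0, at 0.66, 1.23 and 0.95.

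For all 10 genes the replicate day, with 3 levels, accounted for more of the sum of squares than the line, with 2. A factor with more levels takes a larger share even without an effect. For *Igf2bp3*, *Sall4*, *Hmga1* and *Igf2bp1* the largest share fell to neither, at 87.4%, 66.2%, 65.1% and 55.5%. For *Lin28a*, the day accounted for 96.9% and the line for 0.16%. For *Lin28b*, the day accounted for 65.8% and the line for 32.3%. Over all genes tested the shares were 60.5% for the day and 13.7% for the line. In limma's F test between days, with the line in the model, 1 of the 10 genes passed, which was *Lin28b* (adjusted p = 0.0387), against 546 of 12891 genes or 4.24%. *Trim71* (adjusted p = 0.0900), *Igf2bp2* (adjusted p = 0.0928), *Hmga2* (adjusted p = 0.0987) and *Lin28a* (adjusted p = 0.168) did not pass in limma. This test rests on 2 libraries per day, and on simulated data it made a larger share of false calls than the other tests tried. The call for *Lin28b* was lost without EVX1-Δfs replicate 1 (adjusted p = 0.356) and without Del#3 replicate 1 (adjusted p = 0.115). In a likelihood ratio test of the same reads with DESeq2, 4 genes passed, against 11.5% of all genes with an adjusted p: *Lin28b* (adjusted p = 0.00118), *Hmga2* (0.0308), *Igf2bp2* (0.0454) and *Trim71* (0.0489).

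The difference between the days had opposite signs for the 2 *Lin28* paralogs. On the log2 scale, replicate 1 minus the mean of replicates 2 and 3 was 1.37 for *Lin28b* and -0.56 for *Lin28a*. The same difference was 0.78 for *Hmga2*, 0.73 for *Igf2bp2*, 0.39 for *Igf2bp1* and 0.11 for *Igf2bp3*. It was -0.86 for *Trim71*, -0.28 for *Hmga1*, -0.26 for *Sall4* and -0.09 for *Mycn*. *Hmga2* and the 3 *Igf2bp* genes had the sign of *Lin28b*, and *Trim71* that of *Lin28a*, but of these only *Lin28b* passed the limma test. Both libraries of replicate 1 lay above the other 4 for *Lin28b*, *Hmga2* and *Igf2bp2*, against 22.2% of all genes, and below the other 4 for *Lin28a* and *Trim71*, against 22.7%. These 5 of 10 genes compare with 44.9% of all genes, so the share is near the background. Of all genes tested, 3.68% had a larger positive difference than *Lin28b*.

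**Figure D4:**
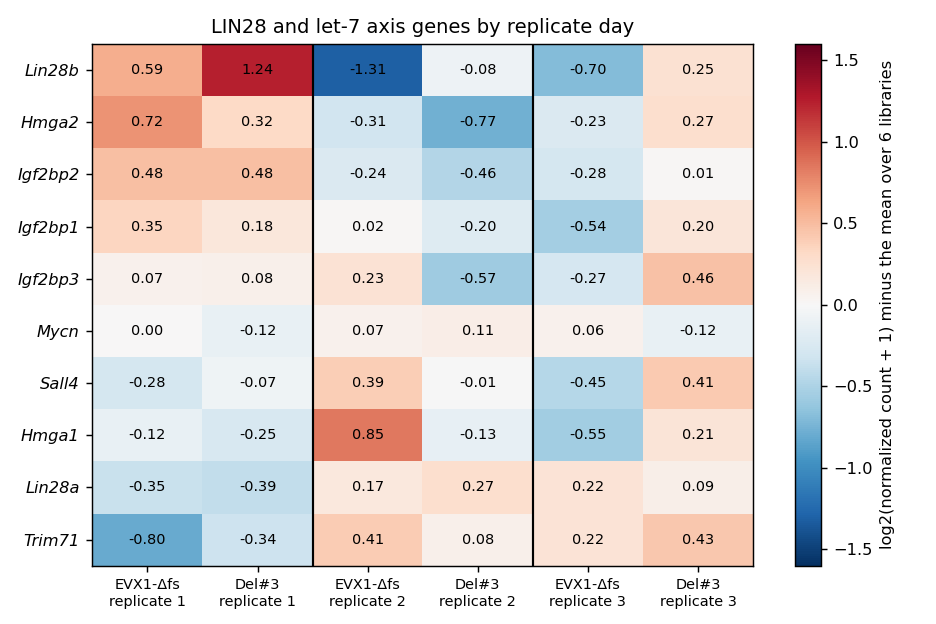
Log2(normalized count + 1) of each gene in each library, minus its mean over the 6 libraries, ordered by the difference between replicate 1 and the other days. *Lin28b*, *Hmga2* and *Igf2bp2* are above their mean in both libraries of replicate 1, and *Lin28a* and *Trim71* are below it.

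Depth and transcript composition moved with the replicate day. The size factors of replicate 1 were 1.52 in EVX1-Δfs and 1.25 in Del#3, and those of the other libraries were between 0.846 and 0.936. For the 12235 tested genes with a gene model, the median difference of replicate 1 from replicates 2 and 3 was 0.47 in the quartile with the lowest GC content and -0.15 in the quartile with the highest. By exonic length it was -0.23 in the shortest quartile and 0.32 in the longest. *Lin28b* (GC 40.2%, 9065 exonic bases) and *Hmga2* (GC 41.7%, 6772 bases) fell in the lowest quartile of GC and in the longest quartile, and *Igf2bp2* (GC 50.4%, 7131 bases) fell in the longest. *Trim71* (GC 59.5%) fell in the highest quartile of GC, while *Lin28a* (GC 50.1%, 3505 bases) fell in the second quartile for both measures. The part of depth and composition in the day differences was not tested. Between the lines, the median log2 difference was -0.095 in the shortest quartile and 0.10 in the longest, which includes *Lin28b*.

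Levels were compared between genes as RPKM, the reads of a library scaled to its total and to the annotated exonic length in kb. *Lin28a* was the most abundant of the 10 mRNAs, at 174 ± 30.6 in EVX1-Δfs and 175 ± 27.8 in Del#3 (SD, n = 3). Of its exonic bases, 16.3% had a copy of 98.1% identity on chromosome 7. Its 6 libraries, from 138 to 195, did not overlap with those of *Sall4*, the next gene, at 52.6 ± 18.2 and 61.3 ± 12.1. *Lin28a* made up between 40.7% and 57.0% of the summed level of the 10 genes in a library. Next came *Igf2bp3* at 35.5 ± 7.33 and 37.3 ± 13.7, *Igf2bp1* at 24.9 ± 8.30 and 27.0 ± 5.60, and *Mycn* at 21.5 ± 0.727 and 20.7 ± 0.946 RPKM. *Hmga2* at 16.8 ± 7.73 and 15.9 ± 6.60, *Igf2bp2* at 13.9 ± 4.93 and 14.7 ± 5.80, and *Trim71* at 13.8 ± 5.24 and 14.7 ± 3.56 RPKM followed. Among the 7 genes from *Sall4* down to *Trim71*, neighbours in this order overlapped in range over the libraries. Such ranges ignore that the genes were measured in the same libraries. Within single libraries, *Sall4* was above *Igf2bp3* in 6 of 6, and *Igf2bp3* was above *Igf2bp1* in 6 of 6. *Igf2bp1* was above *Mycn* in 4 of 6, *Mycn* above *Hmga2* in 5, *Hmga2* above *Igf2bp2* in 4 and *Igf2bp2* above *Trim71* in 2. *Lin28b*, at 1.18 ± 0.859 and 2.19 ± 1.27 RPKM, lay below *Trim71* without overlap. *Hmga1*, at 1.24 ± 0.686 and 1.07 ± 0.189, overlapped with *Lin28b*, and its level is uncertain for the reason given above.

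**Figure D5:**
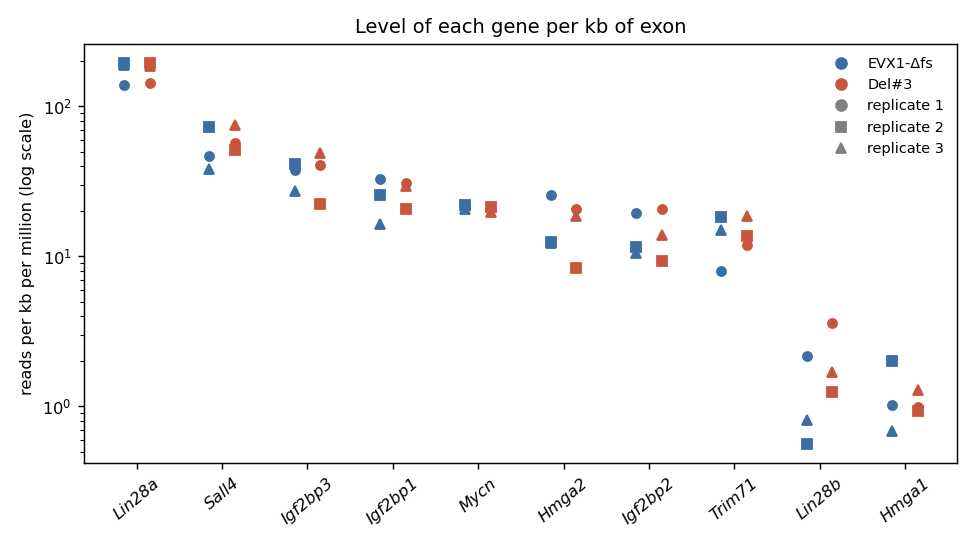
RPKM (log axis) of each gene in every library, in order of the mean; blue is EVX1-Δfs, red is Del#3 and the symbols are the replicates. *Lin28a* lies between 138 and 195, above every library of the other genes, and *Lin28b* and *Hmga1* lie below all others.

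*Lin28a* mRNA exceeded *Lin28b* mRNA in every library, but by a varying factor. The ratio of *Lin28a* to *Lin28b* per kb was 64.1, 345 and 233 in EVX1-Δfs and 39.4, 156 and 110 in Del#3. It was lowest in replicate 1 in both lines, and in each pair it was lower in Del#3 than in EVX1-Δfs. The log2 difference of *Lin28a* between the lines was -0.02, so the lower ratio in Del#3 mostly restates the difference of *Lin28b*. The *Lin28b* values rest on 46 to 402 reads per library. Within the *Igf2bp* family, *Igf2bp3* gave 41.8% to 53.1% of the family's summed RPKM, *Igf2bp1* 30.1% to 39.5% and *Igf2bp2* 14.8% to 22.6%, and the order was the same in all 6 libraries.

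The machinery that makes, loads and destroys let-7 was read out from the same fit. All 23 listed genes of let-7 processing and turnover were tested, and 0 of 23 passed in limma, edgeR or DESeq2. The median log2 difference was 0.041, with 14 of 23 positive. It rested on single libraries, at -0.12 without EVX1-Δfs replicate 2 (10 of 23 positive), -0.038 without Del#3 replicate 1 (8 of 23), -0.013 without EVX1-Δfs replicate 3 (11 of 23), 0.37 without EVX1-Δfs replicate 1 (18 of 23) and 0.42 without Del#3 replicate 2 (19 of 23). The 1 gene of 23 with an unadjusted p under 0.05, against 1.03% of all genes, was *Eif2c3*, the Argonaute gene also known as *Ago3*, with 21.1, 12.9 and 9.45 normalized counts in EVX1-Δfs and 42.2, 29.0 and 32.0 in Del#3. Its libraries did not overlap between the lines, as for 3.51% of all genes, from 8 to 53 reads per library (log2 difference 1.25, SE 0.44, limma adjusted p = 1.00). The unadjusted p of *Eif2c3* in limma was 0.0173, and it was 0.0661 without EVX1-Δfs replicate 3 and 0.0677 without Del#3 replicate 1, which left 0 of 23. With a filter of at least 10 reads in every library it was not tested. The count in limma was 2 of 23, with *Zcchc11* added, without EVX1-Δfs replicate 1 (3.41% of all genes) and with the replicate block (4.62%). With the replicate block in edgeR it was 3 of 23, against 4.50% of all genes. *Zcchc11*, also known as *Tut4*, encodes the terminal uridylyltransferase that LIN28A recruits to precursors of let-7. It had 490, 197 and 273 normalized counts in EVX1-Δfs and 913, 402 and 372 in Del#3, and like *Lin28b* it was higher in Del#3 in each pair (log2 difference 0.79, SE 0.42, limma adjusted p = 1.00, and 0.693 with the replicate block). The difference of *Zcchc11* was 0.38 without Del#3 replicate 1, 0.49 without EVX1-Δfs replicate 2 and 1.15 without EVX1-Δfs replicate 1. The largest negative log2 differences were those of *Prkra*, which encodes the DICER partner PACT, at -0.37 (SE 0.30), and *Eif2c4* (*Ago4*), at -0.24 (SE 0.38), and neither passed.

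Between the replicate days, 4 of these 23 genes passed limma's F test, against the 4.24% of all genes given above. They were *Dicer1*, which cuts the let-7 precursor (replicate 1 minus the other days 1.50, adjusted p = 0.0324), and the terminal nucleotidyltransferase genes *Zcchc6* (1.19, adjusted p = 0.0393), *Papd4* (1.44, adjusted p = 0.0404) and *Zcchc11* (1.16, adjusted p = 0.0415). All 4 were highest on replicate 1, the direction of *Lin28b*. The number was 0 without EVX1-Δfs replicate 1 and 1 without Del#3 replicate 1, where 1.50% and 1.64% of all genes passed. It was 12 without EVX1-Δfs replicate 2 (17.1% of all genes), 9 without EVX1-Δfs replicate 3 (19.0%), 10 without Del#3 replicate 2 (11.6%), 12 without Del#3 replicate 3 (25.2%) and 9 with DESeq2 (11.5%).

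Of the other let-7 targets, 24 were tested and 0 passed between the lines in limma, edgeR or DESeq2, with 0 also at an unadjusted p under 0.05 in limma. With the replicate block in limma 1 of 24 had an unadjusted p under 0.05, against 4.62% of all genes, which was *Tgfbr1* (0.0428). The median log2 difference was -0.023 and 10 of 24 were positive. The sign of this median changed with the setting: it was 0.035 in edgeR (15 of 24 positive), 0.012 in DESeq2 (13 of 24), 0.011 with scaling by total reads (14 of 24) and 0.081 without Del#3 replicate 2 (14 of 24). The median over all genes moved too, from 0.0022 to 0.027, 0.0087, 0.035 and 0.0063 in the same order. The largest positive differences were those of the TGF-β receptor gene *Tgfbr1*, at 0.45 (SE 0.35), and of *Myc*, at 0.35 (SE 0.39). The largest negative one was that of *Prdm1*, a transcription factor gene of the germ line, at -0.40 (SE 0.52). Between the days 3 of 24 passed, which were *Dicer1*, the histone chaperone gene *Nap1l1* (adjusted p = 0.0470) and the heme-responsive repressor gene *Bach1* (adjusted p = 0.0485, limma), against the 4.24% of all genes given above. This count was 1 with TMM factors (2.69% of all genes) and with edgeR (3.58%), 0 without EVX1-Δfs replicate 1 and 1 without Del#3 replicate 1. It was 6, 7 and 8 without EVX1-Δfs replicate 2, EVX1-Δfs replicate 3 and Del#3 replicate 3, beside the shares of all genes just given for those settings.

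Of all tested genes other than the 10, 409 carried the 8mer in the longest annotated 3′ UTR, genes of the lists above included. None of the 409 passed in limma, edgeR or DESeq2, and 8 had an unadjusted p under 0.05 in limma, against 1.03% of all genes. With the replicate block 23 did, against 4.62%. Their median log2 difference was 0.038, with 228 of 409 positive, beside 0.0022 over all genes. The 8mer was more frequent in longer 3′ UTRs, and the 409 genes were not matched for length. By quartile of exonic length, the median over genes with a gene model ran from -0.095 in the shortest to 0.10 in the longest. Without Del#3 replicate 1 the median of the 409 was 0.026, beside 0.027 over all genes. With single libraries left out, the count at an unadjusted p under 0.05 ranged from 1, without Del#3 replicate 1 (0.574% of all genes), to 22, without EVX1-Δfs replicate 1 (3.41% of all genes), and the median from 0.016, without EVX1-Δfs replicate 3, to 0.078, without Del#3 replicate 2. Poly(A)-selected libraries do not measure mature let-7. The let-7g hairpin (chr9:106081171-106081258, plus strand) lies in *Wdr82*, whose mRNA had 1407, 2152 and 2276 normalized counts in EVX1-Δfs and 1195, 1954 and 2194 in Del#3. The let-7f-2 and miR-98 hairpins lie in *Huwe1* on chromosome X, whose mRNA had 5224, 3236 and 1888 normalized counts in EVX1-Δfs and 6212, 2234 and 5557 in Del#3. Both host genes overlapped between the lines. An mRNA level of a host gene is not a level of the microRNA.

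The genes most like each regulator were found as those with the smallest root mean square difference of centred log2 values over the 6 libraries. For *Lin28a* they were *Pcbp4* (0.020), *Wdr34* (0.027) and *Ubox5* (0.029), beside an SD of *Lin28a* itself of 0.29. *Pcbp4* had 4686, 6903 and 7061 normalized counts in EVX1-Δfs and 4560, 7466 and 6552 in Del#3. For *Lin28b*, with an SD of 0.91, they were *Socs4* (0.14), *Smchd1* (0.16) and *Zfp281* (0.16). *Smchd1* had 308, 84.4 and 138 normalized counts in EVX1-Δfs and 631, 194 and 219 in Del#3, with the same 2 features as *Lin28b*, a high replicate 1 and a higher Del#3 library in every pair. For *Trim71*, with an SD of 0.48, they were *Vps37d* (0.11), *H2afj* (0.11) and *Rps27* (0.12), all lowest on replicate 1. Likeness over 6 libraries of 2 lines and 3 days is a description of these libraries.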

How the data were processed

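mRNA-seq libraries of D4 EBs, 3 of EVX1-Δfs and 3 of Del#3, were analysed. Reads from the Ion Proton were aligned by the authors to mm9 (TopHat2, with TMAP after it), counted per gene by HTSeq and tested by DESeq2, in versions not given in the sources used here. The values deposited by the authors are a signal, read counts divided by a size factor per library. In every library, 100% of values equalled a whole number of reads times a constant (tolerance 0.01), and the reads were recovered from it. Reads are not independent molecules, and nothing beyond the separate days says how the replicate cultures were kept apart. The 10 genes and the gene lists were chosen with earlier results of these data known.

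Lines were compared with limma (version 3.58.1, R 4.3.3) with its trend option, fitted to log2(normalized count + 1), a scale that understates changes of low genes, over the 12891 genes that passed filterByExpr of edgeR (version 4.0.16) with a minimum count of 10 on the recovered reads. Benjamini-Hochberg adjustment ran over all genes tested, with a threshold of 0.05 and no block. Days were compared by limma's F test with the line in the model. The replicate number was taken to pair the libraries by day, since the study's design has each side by side set on its own day; the correlations of deviations between same-numbered libraries were 0.74, 0.32 and -0.05. Alternatives were other scalings, pseudocounts of 0.1 and 5, other filters, edgeR's quasi-likelihood test and DESeq2 (version 1.42.0) on the recovered reads, the replicate block, and leaving out libraries. On simulated data, each of limma with and without the block, limma's F test between days, edgeR and DESeq2 without the block made more false calls than the threshold aims at for at least 1 size of change, and the F test the most.

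Genes outside the 10 were named if they passed the test or had an unadjusted p under 0.05 between the lines, if they had the 2 largest log2 differences of a list in either direction, or if they were the 3 genes most like a regulator. Genes named only for the day comparison and the let-7 host genes were chosen after their values were seen. Gene models were those of GENCODE on NCBIM37, copies were found with blastn (at least 95% identity over 100 bases or more), and 94.9% of tested genes had a model. 1 symbol stood on 2 rows and was kept as 2 genes. *Hras* and *Acvr1c* were not analysed here. 1 gene that this rule names is not reported here. No proteins were compared.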

Additional observations from a re-analysis of the deposited data

How the results depend on the processing

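None of the 10 genes passed the threshold between the lines under any of the 18 alternatives, and the smallest adjusted p of *Lin28b* was 0.284, in DESeq2 with the replicate block. Over all genes the count was 2 or 3 in every alternative except DESeq2 with the replicate block, which called 18 of 9892 genes and gave 9 of the 10 genes an adjusted p. The counts for the let-7 processing genes, the other targets and the genes with the 8mer were 0 throughout. The replicate block changed no call of the 10 genes. The log2 difference of *Lin28b* stayed positive, from 0.84 to 1.09 over 12 alternatives and from 0.53 to 1.47 with each library left out in turn; with both libraries of replicate 1 left out, an alternative chosen after seeing the data, it was 1.09.

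The sign of differences near 0 changed. *Lin28a* was at 0.012 with scaling by total reads and 0.0011 in edgeR. The median over all genes moved too, from 0.0022 to 0.035 with total reads and 0.027 in edgeR. *Igf2bp3* was at 0.016 with total reads, 0.050 in edgeR, 0.028 in DESeq2 and 0.0054 in edgeR with the replicate block. With both libraries of replicate 1 left out, *Trim71* was at -0.060 and *Hmga2* at 0.018. Leaving out each library once gave ranges of -0.20 to 0.17 for *Lin28a*, -0.26 to 0.35 for *Trim71*, -0.42 to 0.28 for *Hmga1*, -0.31 to 0.23 for *Hmga2*, -0.12 to 0.32 for *Igf2bp1*, -0.21 to 0.27 for *Igf2bp2* and -0.25 to 0.26 for *Igf2bp3*. *Mycn*, at -0.17 to -0.049, and *Sall4*, at 0.051 to 0.47, kept their sign.

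Between days, the count over all genes was 546, 347 with TMM factors, 1308 with DESeq2, and from 194 to 3247 when single libraries were left out. The count among the 10 genes was 4 with DESeq2 and 0 to 4 with each library left out; it was 0 without replicate 1 of either line, 2 without Del#3 replicate 2 (11.6% of all genes) and 4 without EVX1-Δfs replicate 2 (17.1%), EVX1-Δfs replicate 3 (19.0%) or Del#3 replicate 3 (25.2%). Leaving out a library leaves 1 library on that day, which is assumed to vary like the rest. The cause of these shifts was not tested. With 3 libraries per line, the spread between libraries sets the precision, and *Hmga1* and *Lin28b* also rest on few reads, as few as 13 and 46 in a library.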
